A study of Mus musculus with 10 samples.

Results

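A set of 10 genes of the Hippo pathway was followed in mouse preadipocytes given bisphenol S (BPS). They are the coactivators Yap1 and Wwtr1 (the gene of TAZ), the DNA-binding partner Tead1, the regulators Lats2, Amotl2 and Ajuba, and the classic target genes Ccn1, Ccn2, Ankrd1 and Axl. The list was chosen by name, with the BPS-to-DMSO differences of these same libraries already known, so those differences are given as a description without a test of their own. All 10 genes had counts and were tested, out of 32903 genes with transcripts and 14597 genes that passed the filter on low counts. Preadipocytes, the precursors of fat cells, came from the inguinal subcutaneous fat (iSAT) of male wild-type C57 BL6 mice. DMSO, the solvent, was given alone in 5 libraries, and BPS at 2.5 µM in this solvent was given in the other 5. Neither group had another agent or allele named. The exposure time was not given in the sources used here, and no label says whether replicates came from separate mice or separate dishes, so the p-values measure only the spread between these libraries.

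The Hippo pathway is a kinase cascade that restrains YAP and TAZ. When the kinases LATS1 and LATS2 phosphorylate these coactivators they are held in the cytoplasm, and when the cascade is inactive they enter the nucleus and bind TEAD factors on DNA. Cell stretching, stiff substrates and tension in the actin cytoskeleton activate YAP and TAZ, and high cell density restrains them. In precursors of fat cells TAZ is known to bind PPARγ and repress it. YAP activity is controlled mainly at the protein level, which RNA sequencing does not measure.

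TEAD factors bind a short core motif, GGAATG, which reads CATTCC on the opposite strand. Promoter windows from RefSeq (GRCm38.p6), from 250 bases before to 50 bases after the annotated start, were held for 8 of the 10 genes, all but Ccn2 and Tead1. The core motif was searched on both strands, and the stretches that carry it are shown 5′ to 3′ along the gene because each of these 8 genes holds it. Capitals mark the motif, and in Ccn1 also a TATA box (TATAAA).
Ccn1 (chr3:145649986-145650108, minus strand): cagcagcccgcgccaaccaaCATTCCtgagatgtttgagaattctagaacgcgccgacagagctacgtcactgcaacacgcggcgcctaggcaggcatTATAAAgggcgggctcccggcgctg
Ankrd1 (chr19:36119942-36120074, minus strand): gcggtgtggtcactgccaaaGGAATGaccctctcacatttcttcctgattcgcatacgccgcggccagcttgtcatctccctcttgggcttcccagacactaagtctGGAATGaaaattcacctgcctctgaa
Amotl2 (chr9:102717719-102717764, plus strand): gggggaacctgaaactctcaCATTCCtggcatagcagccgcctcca
Axl (chr7:25788941-25788983, minus strand): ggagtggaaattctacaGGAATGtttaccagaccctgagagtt
Ajuba (chr14:54577800-54577867, minus strand): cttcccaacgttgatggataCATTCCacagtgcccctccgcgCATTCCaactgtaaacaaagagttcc
Lats2 (chr14:57746104-57746129, minus strand): tgacgcccgtGGAATGccaacaatgt
Yap1 (chr9:8004712-8004757, minus strand): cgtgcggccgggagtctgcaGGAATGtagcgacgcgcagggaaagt
Wwtr1 (chr3:57576021-57576066, minus strand): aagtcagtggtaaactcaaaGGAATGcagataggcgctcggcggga

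All 8 genes with a promoter window held at least 1 core motif, though not every one of their 10 windows did. The motif was present for 16.6% of 27025 genes with a window (14.7% of 32851 windows) and for 14.6% of 11456 tested genes with one. Ankrd1 and Ajuba each held 2 copies. The motif of Amotl2 began 65 bases before the start and that of Ccn1 103 bases before it. In Lats2 it lay just after the start, from base 5 to base 10, and Wwtr1 held 1 copy that falls in both of its 2 annotated windows. The longer form GGAATGT, which contains the core, occurred in Ccn1, Axl, Yap1, Amotl2 and Ajuba, 5 of the 8 genes, and for 4.47% of all genes with a window. The CArG box, the motif of the serum response factor SRF, was found in 0 of the 8 genes and for 1.81% of all genes, and the AP-1 motif TGANTCA in 0 of the 8 and for 8.97%. At such low shares over all genes, 0 of 8 is not unusual, so nothing is read from these 2 absences. A match describes letters within this window and does not show that a factor binds there. An absence does not show that a gene lacks a site elsewhere. The genes that carry the core motif include both those that were higher under BPS and those whose groups overlapped.

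**Figure D1:**
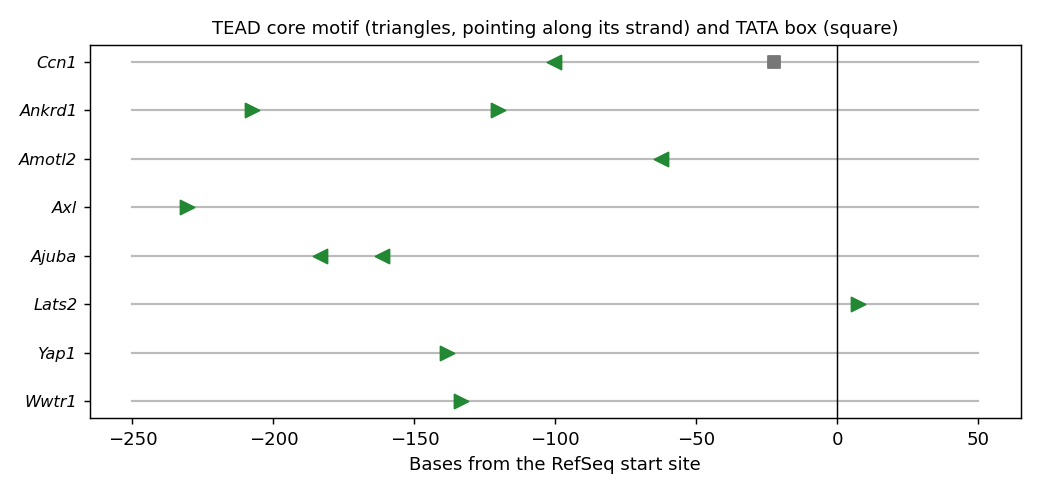
Position of the TEAD core motif in the promoter windows of 8 genes, in bases from the RefSeq start site on the x axis, with 1 line per gene from 250 bases before to 50 bases after the start. Triangles point along the strand of the motif and the square is the TATA box of Ccn1. All 8 genes hold at least 1 motif, and in all but Lats2 it lies before the start.

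Expression was read as estimated counts summed per gene and given as CPM, counts scaled to a common library total, with TMM factors that correct for library composition. Total estimated counts per library ran from 37920689 to 42717227, without a difference between DMSO and BPS past the threshold (p = 0.452, two-sided exact permutation test). Of 8 preadipocyte markers, Pdgfra (904 ± 14.3 CPM in DMSO) and Dcn (567 ± 20 CPM, SD, n = 5 each) were abundant. Dpp4, from the same list, was low, at 2.45 ± 0.288 CPM in DMSO (69 to 111 counts per library). None of the 6 markers of mature adipocytes had more than 5 counts in any library. Markers of epithelial cells had at most 9 counts. Low levels of other cell types' markers were present, with sums per library of 9.71 to 18.6 CPM for 6 macrophage markers (Lyz2 up to 467 counts, Csf1r at 0). The sums were 17.1 to 23.2 CPM for 6 endothelial markers (Tek up to 500 counts) and 9.05 to 12.9 CPM for 6 mesothelial markers (Krt19 up to 437 counts, Msln and Upk3b at 0). Library codes in the labels number the DMSO libraries before the BPS libraries, so a batch that followed this order cannot be told apart from treatment. Across all 14597 genes, 712 (4.88%) passed a Benjamini-Hochberg adjusted p of 0.05 in the quasi-likelihood test of edgeR, the threshold used throughout. Of these, 447 were higher (3.06%) and 265 lower (1.82%) under BPS. With scaling by library size alone the split was 334 higher and 394 lower. The count of 712 was 449 without DMSO replicate 2, and 462, 465 and 462 without BPS replicates 2, 3 and 4. With the replicate number added to the model it was 374.

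Among the 10 genes the target genes Ccn2, Ankrd1 and Ccn1 stood highest above the vehicle, by 24%, 22.8% and 13.6%. The coactivators Yap1 and Wwtr1, the kinase Lats2 and the receptor Axl had log2 fold changes between 0.00 and 0.02. In all, 4 of the 10 genes passed the adjusted p of 0.05 over all genes, all 4 of them higher, beside 4.88% of all genes tested. The same 4, Ccn1, Ccn2, Ankrd1 and Ajuba, had BPS values that did not overlap the DMSO values, beside 6.9% of all genes. Since the list was made with these differences in view, nothing is read from its shares. The median log2 fold change was 0.09 over the 10 genes, with values up to 0.31, and 0.00 over all genes. In bulk RNA, fewer or more cells of a type and less or more RNA per cell cannot be told apart.

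**Figure D2:**
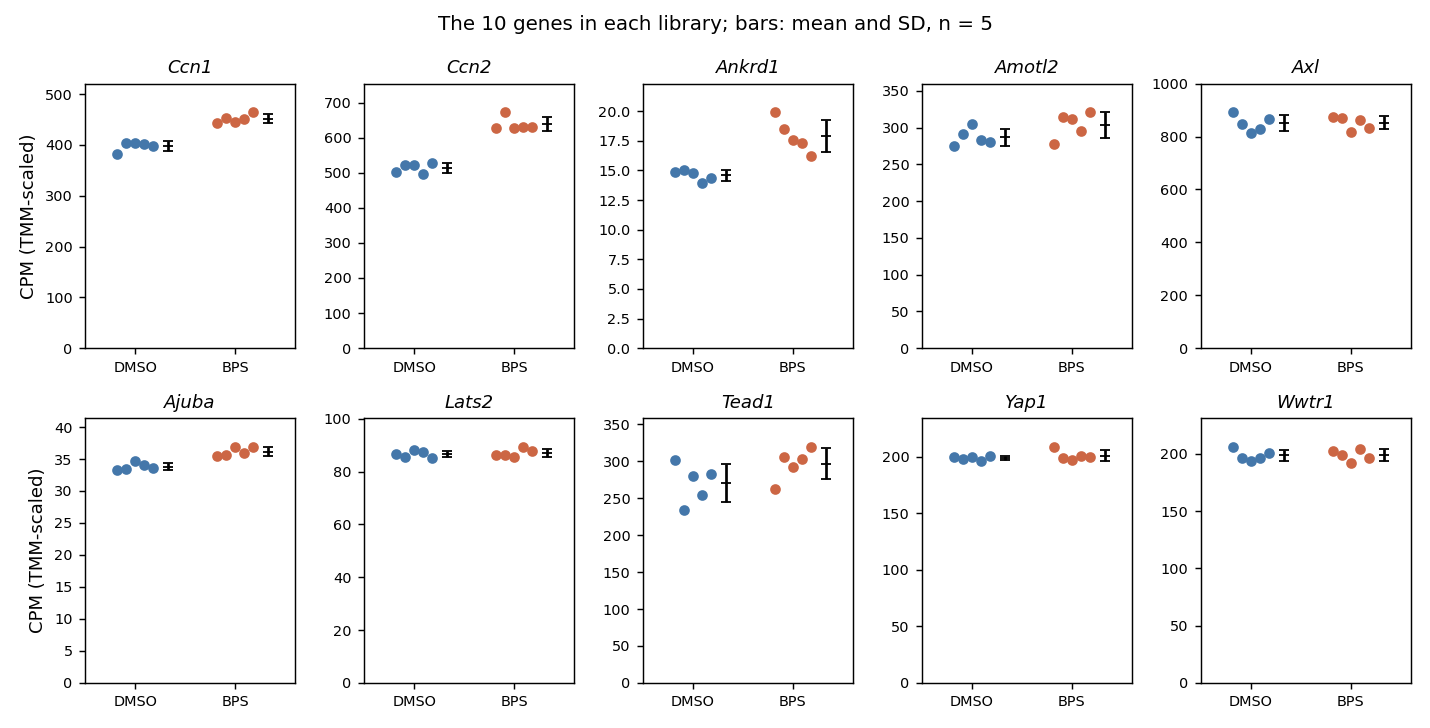
Level of each of the 10 genes in every library, as TMM-scaled CPM on y axes that start at 0. Points are libraries and bars are the mean and SD (n = 5 per group). For Ccn1, Ccn2, Ankrd1 and Ajuba all 5 BPS points lie above all 5 DMSO points, while the groups overlap for the other 6 genes.

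Ccn2 encodes connective tissue growth factor, a secreted matricellular protein of the CCN family and a standard readout of YAP activity. It measured 501.5, 522.4, 521.8, 496.2 and 529 CPM in DMSO replicates 1 to 5, and 626.5, 673.1, 626.5, 631.1 and 631.1 CPM in BPS replicates 1 to 5. The groups were far apart compared with their own spread, and BPS replicate 2 was the highest. Group means were 514 ± 14.4 CPM and 638 ± 19.9 CPM (SD, n = 5 each), which is 0.31 (SE 0.02) on the log2 scale.

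Ccn1, or Cyr61, is the other secreted CCN protein commonly used as a YAP readout. It stood at 381.8, 403.2, 403.4, 402.3 and 398.2 CPM in the DMSO libraries and at 442.8, 453.9, 446, 451.5 and 465 CPM in the BPS libraries. Every BPS value was above every DMSO value, and DMSO replicate 1 was lower than the rest of its group. The log2 fold change was 0.18 (SE 0.02).

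Ankrd1 encodes a nuclear and sarcomeric ankyrin repeat protein that responds to mechanical load. It rested on 514 to 795 counts per library. It measured 14.91, 15.01, 14.75, 13.9 and 14.35 CPM in DMSO and 19.94, 18.47, 17.55, 17.36 and 16.22 CPM in BPS. The BPS libraries were all higher but differed more among themselves, with BPS replicate 1 at the top. The log2 fold change was 0.30 (SE 0.05), and 0.25 without BPS replicate 1. Tested on single transcripts rather than gene sums, with more features to adjust over, Ankrd1 and Ajuba did not pass the threshold.

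Axl, a receptor tyrosine kinase whose ligand is the product of Gas6, has been used as a YAP target in many cell types. In these cells it ran from 814.6 to 893 CPM in DMSO and from 819.1 to 875.4 CPM in BPS. The groups overlapped almost fully, with a log2 fold change of 0.00 (SE 0.03). Its sign changed in 7 of 19 alternative analyses, so no direction is given.

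Of the regulators, Ajuba encodes a LIM protein that restrains the LATS kinases. Its level was 33.22, 33.46, 34.7, 34.01 and 33.65 CPM in DMSO and 35.41, 35.56, 36.86, 35.96 and 36.92 CPM in BPS, a small difference without overlap. The log2 fold change was 0.10 (SE 0.02). Ajuba kept its sign throughout and was past the threshold of 0.05 in 6 of 19 alternative analyses.

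Amotl2 encodes an angiomotin protein that binds YAP at the actin cytoskeleton and cell junctions, and it is also a YAP target. It ran from 275.3 to 304.8 CPM in DMSO and from 277.2 to 321.2 CPM in BPS, with BPS replicates 1 and 4 inside the DMSO range. The log2 fold change of 0.08 (SE 0.04) did not pass the threshold. Lats2, the kinase that phosphorylates YAP and TAZ and is itself induced by them, had a DMSO mean of 86.6 ± 1.25 CPM and a BPS mean of 87.0 ± 1.62 CPM (SD, n = 5 each). The SE of its log2 fold change was 0.02, and its values in the groups interleaved.

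The coactivators themselves differed little in their gene totals. Yap1 measured 200, 198.2, 199.7, 196.6 and 200.4 CPM in DMSO and 208.9, 198.9, 197.5, 200.3 and 199.9 CPM in BPS. Apart from BPS replicate 1, the BPS libraries lay within the DMSO range, and the log2 fold change was 0.02 (SE 0.02). Wwtr1 had nearly the same mean in both groups, at 198.8 ± 4.92 CPM and 198.7 ± 5.11 CPM (SD, n = 5 each). Tead1, the DNA-binding partner, varied widely between replicates, from 234.7 to 301.2 CPM in DMSO and from 263 to 319.8 CPM in BPS. Its log2 fold change of 0.13 (SE 0.07) lay within that spread and did not pass the threshold.

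The Yap1 sum hides its transcripts. Of 8 RefSeq transcripts, NM_001171147 and NM_009534 held 91.5% of the Yap1 counts. The GENCODE M21 transcripts linked to these accessions differ, past the first exon, only by a cassette exon of 48 bases, exon 6 of 9 in the longer form, at chr9:7950492-7950539 on the minus strand of GRCm38. The exon keeps the reading frame and adds 16 codons. Its sequence is shown because it is what tells the transcripts apart.
Yap1 exon 6: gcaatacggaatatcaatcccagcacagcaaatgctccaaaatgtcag

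The exon-containing transcript made up 48.8%, 52.1%, 50.8%, 50.9% and 53.2% of these 2 transcripts in DMSO replicates 1 to 5, and 58.6%, 57.2%, 62.9%, 61.6% and 52.1% in BPS replicates 1 to 5. In 4 of the 5 BPS libraries the share lay above every DMSO value, and BPS replicate 5 lay within the DMSO range. This comparison was picked after the values were seen. The means were 51.1 ± 1.67% and 58.5 ± 4.21% (SD, n = 5 each), a difference of 7.32 percentage points. The total over transcripts, which the choice of the 10 genes rested on, does not fix this share. As a part of all Yap1 counts, the exon-containing transcript differed with p = 0.0159 in an exact two-sided permutation test, where the smallest possible is 0.00794. Shares were tested for the 10 transcripts of Yap1, Tead1, Axl and Amotl2 that held between 5% and 95% of their gene, and after Benjamini-Hochberg adjustment over them this exact permutation p was 0.0794, which does not pass. The exon-containing transcript had a log2 fold change of 0.23 (SE 0.05) and the other of -0.20 (SE 0.06). Neither passed with adjustment over all transcripts (adjusted p = 0.211 and 0.451 by edgeR). These counts are estimates of how shared reads divide, and past the first exon only reads over this exon or its junctions tell the transcripts apart. The exact permutation p for the shares of Tead1, Axl and Amotl2 ran from 0.23 to 1 before adjustment.

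**Figure D3:**
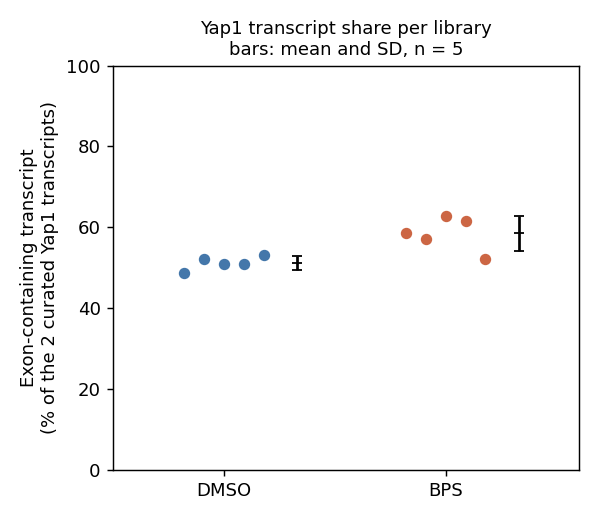
Share of the exon-containing transcript among the 2 main Yap1 transcripts in each library, in percent on a y axis from 0 to 100. Points are libraries and bars are the mean and SD (n = 5 per group). The BPS mean is 58.5% and the DMSO mean 51.1%, with BPS replicate 5 at 52.1%.

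Other genes of the pathway were placed in lists that, like the 10 genes, were drawn up with earlier results of these data known. The Hippo kinase cascade and its upstream regulators gave 0 changed genes of 20 tested by edgeR, 0 by the DESeq2 Wald test and 0 by limma-voom. By edgeR 4 of them had an unadjusted p under 0.05. Their log2 fold changes ran from -0.13 to 0.12. Over all 14597 genes, 712 (4.88%) changed by edgeR, 952 by DESeq2 and 695 by limma-voom, and 2750 had an unadjusted edgeR p under 0.05. Both 0 and 4 of 20 are near these shares, so the counts do not set the cascade apart from other genes. Lats1, the partner kinase of Lats2, had a DMSO mean of 96.8 ± 2.01 CPM and a BPS mean of 96.1 ± 0.759 CPM (SD, n = 5 each). Nf2, the tumour suppressor merlin that activates the cascade, had a log2 fold change of -0.08 (SE 0.03, edgeR adjusted p = 0.149). Of the other TEAD factors and TEAD cofactors, 5 of 7 were tested and 0 changed by edgeR, DESeq2 or limma-voom, with 0 at an unadjusted p under 0.05. With 4.88% of all genes changed by edgeR, 0 of 5 is not unusual either. The factors Tead2, Tead3 and Tead4 had log2 fold changes of -0.05, 0.03 and 0.15 (SE 0.04, 0.03 and 0.12), Tead4 on only 44 to 71 counts per library. Vgll3 and Vgll4, cofactors that bind TEAD, had 0.08 (SE 0.04) and 0.03 (SE 0.04).

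Among the relatives of the 10 genes, 12 of 14 were tested, 0 rose and 2 fell, beside 4.88% of all genes changed. Ccn5, a CCN protein without the C-terminal domain, fell, with means of 9.80 ± 1.13 CPM under DMSO and 7.37 ± 1.09 CPM under BPS (SD, n = 5 each), at a log2 fold change of -0.41 (SE 0.11, edgeR adjusted p = 0.0463). Its groups overlapped narrowly. When 1 library was left out, edgeR gave an adjusted p from 0.0201 (without BPS replicate 5) to 0.101 (without BPS replicate 4), and only the former passed. Pros1, a ligand of the TYRO3 and MERTK receptors related to Axl, fell by 0.09 on the log2 scale (SE 0.02, edgeR adjusted p = 0.0154). With accessions matched by exact version its adjusted p was 0.554. Gas6, the ligand of Axl, and Mertk, a receptor of its family, had log2 fold changes of 0.10 (SE 0.04) and 0.14 (SE 0.07), and neither passed (edgeR adjusted p = 0.153 and 0.349). The angiomotin genes Amot and Amotl1 had 0.01 (SE 0.03) and 0.00 (SE 0.03), and the LIM genes Limd1 and Wtip -0.02 (SE 0.02) and -0.005 (SE 0.05). None of these 4 passed the threshold.

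Targets of YAP outside the 10 genes were divided into a short target signature and a list of further reported targets. Of the signature, 16 further genes were tested, of which 1 rose and 1 fell, beside 4.88% of all genes changed. Ccdc80, a secreted matrix protein, rose, with means of 582 ± 12.7 CPM under DMSO and 626 ± 12.3 CPM under BPS (SD, n = 5 each), at a log2 fold change of 0.10 (SE 0.02, edgeR adjusted p = 0.0101). With accessions matched by exact version it missed the threshold (edgeR adjusted p = 0.053). Tgfb2, a TGF-β ligand, fell, with means of 12.5 ± 0.803 CPM under DMSO and 10.3 ± 0.576 CPM under BPS, at a log2 fold change of -0.28 (SE 0.06, edgeR adjusted p = 0.0167). With the replicate number added to the model, Tgfb2 missed the threshold (edgeR adjusted p = 0.0674). Myof, a membrane repair protein, stood at 472 ± 18.6 and 478 ± 8.41 CPM (edgeR adjusted p = 0.772). The median over these 16 genes was 0.04.

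Of the further targets, 19 of 20 genes were tested, 7 rose and 0 fell, beside 3.06% of all genes higher and 1.82% lower, with a median log2 fold change of 0.17. Thbs1, the matricellular protein thrombospondin, rose, with means of 3071 ± 130 CPM under DMSO and 3745 ± 125 CPM under BPS (SD, n = 5 each), at a log2 fold change of 0.29 (SE 0.03, edgeR adjusted p = 0.000303). Inhba, an activin subunit, rose by a log2 fold change of 0.31 (SE 0.05, edgeR adjusted p = 0.00346). Col8a1, a short-chain collagen, and Cav1, the caveolar coat protein, rose by 0.18 (SE 0.02) and 0.17 (SE 0.02), with adjusted p of 0.00115 and 0.00131 by edgeR.

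Several YAP targets, Ccn1, Ccn2, Ankrd1 and Thbs1 among them, are also targets of SRF and of its actin-regulated coactivators MRTF-A and MRTF-B. All 13 genes of a list of these factors and their targets were tested, 11 rose and 0 fell, beside the same 3.06% and 1.82% of all genes, with a median log2 fold change of 0.14, and a range of -0.02 to 0.68. Acta2, smooth muscle actin, rose, with means of 1037 ± 29.3 CPM under DMSO and 1339 ± 41 CPM under BPS (SD, n = 5 each), at a log2 fold change of 0.37 (SE 0.02, edgeR adjusted p = 1.48e-05). Myl9, Tagln and Tpm1, which encode contractile and actin-binding proteins, rose by 0.35 (SE 0.03), 0.32 (SE 0.03) and 0.14 (SE 0.01). Their adjusted p by edgeR were 4.97e-05, 4.18e-05 and 7.99e-05. Srf itself rose by 0.14 (SE 0.03, edgeR adjusted p = 0.0191). When accessions were matched by exact version, its value was 0.065 and did not pass (edgeR adjusted p = 0.684). Of 10 immediate early genes, 4 rose and 1 fell, beside 4.88% of all genes changed. Egr1 and Fos rose by 1.08 (SE 0.09) and 1.37 (SE 0.17), Ier2 rose by 0.41 (SE 0.04), and Ier3 fell by 0.34 on the log2 scale (SE 0.05). Their adjusted p by edgeR were 5.69e-05, 0.00104, 0.000155 and 0.00406.

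Some markers of mural cells, the contractile cells of small vessels, were also higher. Of 6 such markers all were tested and none was at 0. By edgeR 3 rose (Des, Mcam and Cspg4) and 0 fell, beside 3.06% of all genes higher and 1.82% lower. The summed level of the 6 was 90.1 to 95.4 CPM in DMSO and 104.5 to 118.5 CPM in BPS. Rgs5, Notch3 and Myh11, the other 3, averaged 3.55, 15.4 and 2.05 CPM under DMSO and 3.83, 15.9 and 2.37 CPM under BPS, and none passed the threshold. The part of such cells in the higher Ccn1, Ccn2 and Ankrd1 was not tested. Of the other marker lists, the preadipocyte marker Cd34 (1 of 8 tested) and the mesothelial marker Krt19 (1 of 2 tested) rose. By edgeR 0 of 4 tested macrophage markers and 0 of 6 endothelial markers changed, near the 4.88% of all genes. Some were low and imprecise, such as Adgre1 (log2 fold change -0.64, SE 0.52) and Cldn5 (0.51, SE 0.32). A steady level of these cells is therefore not shown.

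**Figure D4:**
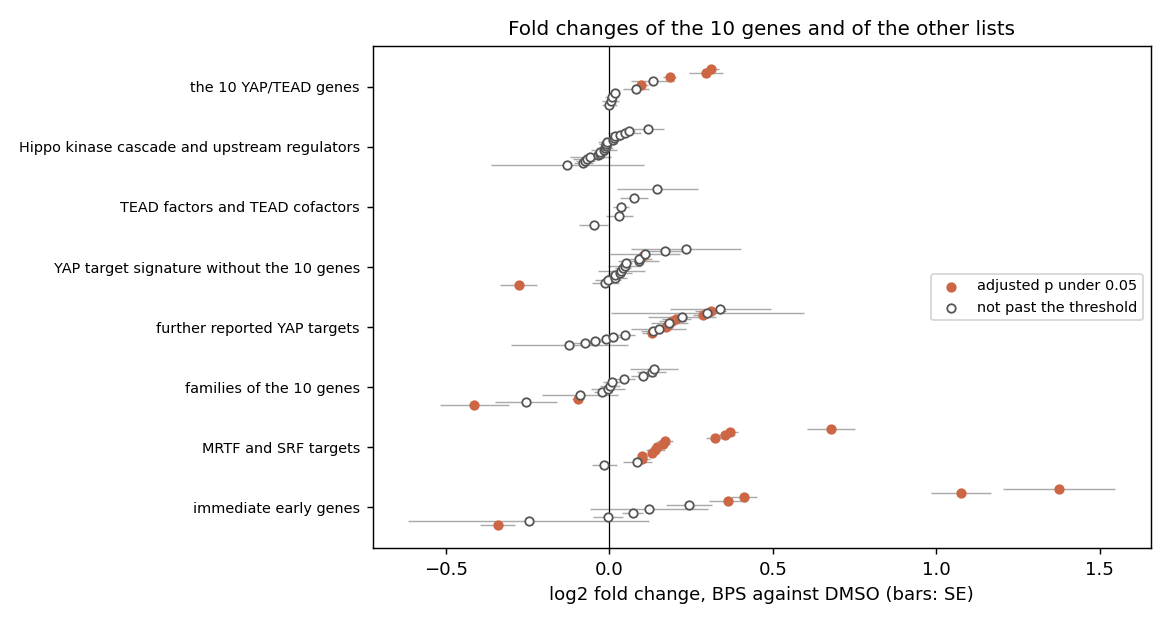
Log2 fold change of BPS against DMSO (x axis, bars are SE) for each tested gene of the 8 lists, 1 point per gene. Filled points passed an adjusted p of 0.05 by edgeR and open points did not. The 20 cascade genes lie between -0.13 and 0.12 with 0 filled points, near the 4.88% of all genes that passed. Of the 13 MRTF and SRF genes 11 are filled and lie to the right of 0, beside 3.06% of all genes higher. The lists were drawn up with earlier results of these data known.

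As a description of likeness, each of 3 target genes was compared with 10472 other genes of at least 5 mean CPM. Likeness was the root mean square difference, over the 10 libraries, of log2 CPM centred on each gene's mean. Nearest to Ccn2 were Tagln (0.0237), Thbs1 (0.0353) and Csrp1 (0.0363), against a median of 0.171 over all genes compared. Nearest to Ccn1 were 2310022B05Rik (0.0204), Cnn2 (0.0222) and Pdlim5 (0.0262), against a median of 0.114. Nearest to Ankrd1 were Lrrn4cl (0.0593), Cd53 (0.0642) and Cd34 (0.0658), against 0.176, a looser match. The points share libraries and scaling, and each gene's difference between the groups is part of the distance.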

How the data were processed

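RNA of 10 libraries was measured after column extraction and directional Illumina library preparation, per the labels' protocols. The authors deposited 1 table of estimated counts for 107384 RefSeq transcripts, made with kallisto 0.42.4, per the submitters' processing notes; the transcript index, genome build and strand setting are not given in the sources used here. Accessions were matched without version to a RefSeq gene table (GRCm38.p6, names only), which covered 93.1% of the counts and 86722 transcripts. Counts were summed per gene, rounded, filtered with filterByExpr and TMM-scaled, and the groups were compared in edgeR (quasi-likelihood test), with p-values adjusted by Benjamini-Hochberg over 14597 genes. SE is the log2 fold change divided by the root of F. Promoter windows came from RefSeq (GRCm38.p6) and exons from GENCODE M21. The code was tested on simulated data.

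The 10 genes, the lists and the markers were chosen with earlier results of these data known. Genes named from the other lists were up to 4 per list with the smallest p among those past an adjusted p of 0.05 with a mean CPM of at least 1, plus a set fixed by name, of which 1 is not reported here; Des, Mcam, Cspg4, Krt19 and Cd34 were named after their values were seen. The Yap1 transcript comparison and the motif searches were also chosen after seeing the data. The alternatives tried were other scalings, filters and tests, exact version matching, a replicate block and leaving out each library. The software was Python 3.11.15 with pandas 2.3.3 and scipy 1.17.1, and, under R 4.3.3, DESeq2 1.42.0, limma 3.58.1 and edgeR 4.0.16.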

Additional observations from a re-analysis of the deposited data

Results flagged for a closer look

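Of 84 groups of 5 values, 5 held a library that stood apart from the rest by Dixon's criterion at the 95% level, where chance alone gives about 4.2. Ccn1 was low in DMSO replicate 1, at 381.8 CPM against 398.2 to 403.4 CPM in the other DMSO libraries. Ccn2 was high in BPS replicate 2, at 673.1 CPM against 626.5 to 631.1 CPM. Yap1 was high in BPS replicate 1, at 208.9 CPM against 197.5 to 200.3 CPM. Col8a1 was high in BPS replicate 5, at 399.8 CPM against 374.1 to 380.9 CPM, and Ccn5 was high in DMSO replicate 3, at 11.79 CPM against 8.936 to 9.529 CPM. Without the library named, the log2 fold change was 0.17 for Ccn1, 0.29 for Ccn2 and 0.00 for Yap1, and the first 2 stayed past the threshold. Ccn5, at -0.34, no longer passed without its own (edgeR adjusted p = 0.0917), and Col8a1 still did.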

How the results depend on the processing

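Ccn1, Ccn2 and Ankrd1 kept their sign and their side of the threshold in all 19 gene-level alternatives, with log2 fold changes of 0.17 to 0.19, 0.29 to 0.32 and 0.25 to 0.33; on unsummed transcripts Ankrd1 and Ajuba did not pass. Ajuba kept its sign but fell short of the threshold in 13 of the 19. The alternatives refit the same libraries that were in view when the 10 genes were chosen, so they describe the processing only. Of the 10 genes, 3 or 4 passed in each alternative, and of the other list genes, 18 (exact version matching) to 28 passed, against 27. The sign of Axl changed in 7, of Wwtr1 in 5 and of Lats2 in 2 alternatives; none of these was past the threshold in any. Tead1 could not be fitted with exact version matching.

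The count over all genes, 712, fell to 374 with the replicate block, 328 with exact version matching, which tests fewer genes, and 126 when transcripts were not summed. Leaving out 1 library gave 449 (DMSO replicate 2) to 774 (BPS replicate 1), with 462 without BPS replicate 2, 465 without BPS replicate 3 and 462 without BPS replicate 4. Deviations of same-numbered libraries correlated at 0.10, 0.0038, -0.067, 0.072 and -0.078. These low values gave no sign of pairing but cannot exclude it, and no label says whether same-numbered libraries belong together. The Yap1 share difference of 7.32 points was 6.21 to 8.9 without 1 library. With treatment permuted within the replicate block it stayed 7.32, with an exact permutation p of 0.125, but 5 pairs cannot give less than 0.0625, so this test could not have passed. Under the block Tgfb2 and Ccn5 missed the threshold (adjusted p = 0.0674 and 0.0608 by edgeR). Genes with under 100 counts per library, such as Tead4, allow only coarse estimates.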

Other observations

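The CArG box was present in the promoter windows of 20 of 342 genes higher under BPS that had a window (5.85%), of 6 of 208 genes lower (2.88%) and of 1.59% of 11456 tested genes. In the MRTF and SRF list 5 of 11 genes with a window held it. The TEAD core motif was present for 64 of the 342 genes higher (18.7%), 24 of the 208 lower (11.5%) and 14.6% of the tested genes. Among the further reported YAP targets 4 of 12 genes with a window held it, in the signature 2 of 10, in the MRTF and SRF list 4 of 11, in the cascade 5 of 17 and among the other TEAD factors and TEAD cofactors 4 of 6. These shares are descriptions of letters in the windows and were given no test.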
